A study of Homo sapiens with 2 samples.

Results

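The group of miR-15, miR-16, miR-103 and miR-107 consists of microRNAs (miRNAs, short RNAs that pair with messenger RNAs and lower their output) whose seeds overlap in the letters GCAGCA. The members were the loci of the deposited count table whose names hold miR-15a, miR-15b, miR-16, miR-103a, miR-107, miR-195, miR-424, miR-497, miR-503 or miR-646. This gave 11 of 947 loci, under 8 of these 10 names, and miR-503 and miR-646 are not analysed here. The tested libraries came from MCF10A cells given 2 µM withaferin A, a steroidal lactone from Withania somnifera, for 24 h (n = 3). The others came from non-treated MCF10A cells (n = 3). MCF10A is an immortalised line of human mammary epithelium that does not form tumours. Both record titles add the letters SK to the cell name without explaining them there, and neither group is named with another genotype or agent. Each group is 1 sample record that names 3 replicates, and nothing says that these were separate cultures, so the p-values here rest on a spread between libraries that may be technical.

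The seed, bases 2 to 8 of the mature miRNA, is the stretch that chooses most targets. In the miR-15/16 family it is known to reach messages of cell survival and of the step into DNA synthesis, such as BCL2 and the cyclins CCND1 and CCNE1, and loss of the chromosome 13 copy is a common lesion of chronic lymphocytic leukaemia. miR-103 and miR-107 are made from introns of pantothenate kinase genes, whose enzymes start coenzyme A synthesis. They are known to lower DICER1, the nuclease that cuts miRNA precursors, and CAV1, a membrane protein that bears on insulin signalling.

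The mature sequences, from RefSeq (GRCh38.p14), are shown because the seed defines the group, with the seed in capitals, 5′ to 3′. The first 6 share the seed AGCAGCA. The next 2 share GCAGCAU, the same letters moved by 1 base.
hsa-miR-16-5p: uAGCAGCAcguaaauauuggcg
hsa-miR-15a-5p: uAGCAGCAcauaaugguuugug
hsa-miR-15b-5p: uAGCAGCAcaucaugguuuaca
hsa-miR-195-5p: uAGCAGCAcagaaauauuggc
hsa-miR-424-5p: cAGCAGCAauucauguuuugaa
hsa-miR-497-5p: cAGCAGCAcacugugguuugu
hsa-miR-103a-3p: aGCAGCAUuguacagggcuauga
hsa-miR-107: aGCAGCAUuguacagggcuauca
hsa-miR-103a-1-5p: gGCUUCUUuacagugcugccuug
hsa-miR-103a-2-5p: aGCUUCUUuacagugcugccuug
Across RefSeq, 9 mature names hold GCAGCA within bases 2 to 8, and the only one that is no member name, miR-6838-5p, is not analysed here. miR-16-5p and miR-195-5p are the same at 19 of the 21 positions compared, and miR-15a-5p and miR-15b-5p at 18 of 22. miR-103a-3p and miR-107 differ by 1 substitution, G22C, counted from 1 at the 5′ end of miR-103a-3p.

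The table lists miR-103a at 2 loci, and names both as 5p arms. Those 5p arms carry the seed GCUUCUU and not that of the group, and they differ from each other by 1 substitution, G1A, counted from the 5′ end of miR-103a-1-5p. The counts of the 2 loci were nevertheless equal in 6 of 6 libraries. The 3p arm, in capitals in both hairpins below, is the same 23 bases in each, so a read of it fits both loci. Which arm the reads came from is not given in the sources used here, and the pair is therefore written as miR-103a and treated as a single measurement. Other loci keep the arm of their deposited name, and the arm counted there is not given either. The loci named miR-1-3p and miR-1-5p, for example, both had 2, 8 and 3 counts in the untreated libraries.
MIR103A1: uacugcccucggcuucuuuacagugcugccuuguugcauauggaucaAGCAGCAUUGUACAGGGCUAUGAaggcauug
MIR103A2: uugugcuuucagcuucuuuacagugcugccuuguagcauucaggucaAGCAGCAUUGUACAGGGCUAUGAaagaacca
MIR103A1 lies at chr5:168560896-168560973 (minus strand) in an intron of PANK3. MIR103A2 lies at chr20:3917494-3917571 (plus strand) in an intron of PANK2. GENCODE places MIR103B1 and MIR103B2 over these hairpins as well, and the counting rule for overlapping genes is not given in the sources used here. MIR107 lies at chr10:89592747-89592827 (minus strand) in an intron of PANK1.

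miR-16-5p also has 2 gene copies with the same mature sequence, in capitals here.
MIR16-1: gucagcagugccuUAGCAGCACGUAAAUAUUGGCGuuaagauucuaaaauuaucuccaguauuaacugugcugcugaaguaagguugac
MIR16-2: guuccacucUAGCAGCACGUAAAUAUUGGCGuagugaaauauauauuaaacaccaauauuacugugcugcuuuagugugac
MIR16-1 lies at chr13:50048973-50049061 (minus strand) in an intron of the non-coding gene DLEU2, 57 bases from MIR15A at chr13:50049119-50049201. MIR16-2 lies at chr3:160404745-160404825 (plus strand) in an intron of SMC4, a condensin subunit, 59 bases from MIR15B at chr3:160404588-160404685. Counts at the chromosome 13 and chromosome 3 loci were 4 and 5, 8 and 8, and 6 and 5 in the withaferin A libraries. They were 5331 and 5283, 2649 and 2622, and 7760 and 7702 in the untreated libraries, where the loci stayed within 1.02% of each other. The 2 loci thus largely hold the same reads, and the counts cannot tell which gene copy made them. Values below are those of the chromosome 13 locus unless the other is named.

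Depth set what could be seen. The withaferin A libraries held 340 to 430 counts each, 1188 in all, and the untreated libraries 1855838 to 2615684. Per the labels' protocol 2 kits were used and, read in the order given, each group had its own, which leaves kit and treatment as differences that cannot be told apart. The floor used for a locus at 0 was 3 counts over the group of 1188, which is 0.253% or 2525 CPM (counts scaled to a common library total). The exact two-sided 95% upper limit for 0 of 1188, as used for the intervals, is a little wider at 0.31%. Floors and intervals cover counting error only. A lower share in bulk RNA cannot tell fewer cells with a miRNA from less of it per cell.

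After withaferin A, miR-16-5p held a larger share of counts than in untreated cells, and miR-103a a smaller one. These were the most abundant members in untreated cells. miR-16-5p took 0.957%, 1.86% and 1.76% of counts in the withaferin A libraries, against 0.207%, 0.101% and 0.418% in the untreated libraries. Every withaferin A library was above every untreated one. The mean was 1.53% ± 0.496 after withaferin A and 0.242% ± 0.161 in untreated cells (SD, n = 3 each), a difference of 1.29 percentage points. An exact two-sided permutation test gave p = 0.1, the smallest that 3 against 3 allows. The summed 18 counts, where the untreated share predicts 2.88, made the share 6.25-fold higher, with exact Clopper-Pearson 95% limits of 3.72 to 9.84. These limits cover counting error after withaferin A and take the untreated mean as known. Without untreated library 3 the share was 9.82-fold higher, and without any other single library 4.84-fold to 7.51-fold. In the shallow libraries the interval of a single share was wide, from 0.261% to 2.43% in withaferin A library 1, which takes in the 0.418% of untreated library 3.

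**Figure D1:**
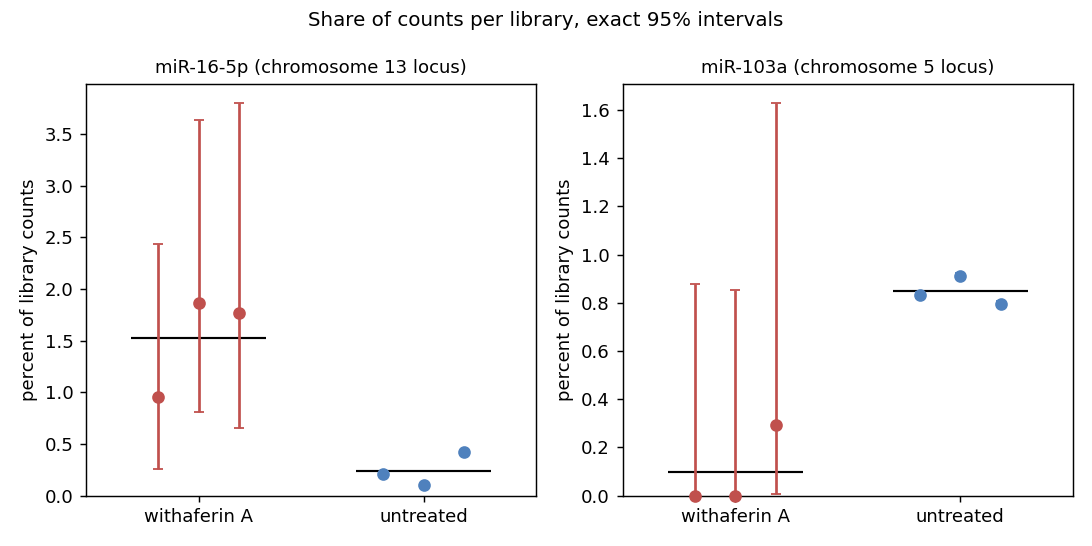
Percent of library counts at miR-16-5p (left) and miR-103a (right) for each library, withaferin A then untreated, with exact 95% intervals as bars and group means as lines. miR-16-5p was at 0.957% to 1.86% after withaferin A and 0.101% to 0.418% untreated, while miR-103a was at 0%, 0% and 0.294% after withaferin A and 0.796% to 0.913% untreated.

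The larger share of miR-16-5p did not pass the test across loci. edgeR's quasi-likelihood test with trimmed mean of M values (TMM) scaling and Benjamini-Hochberg adjustment tested 303 loci. It gave miR-16-5p a log2 fold change, withaferin A over untreated, of 1.5 ± 0.73 (SE) at an adjusted p of 0.26, and 1.54 ± 0.76 (adjusted p = 0.266) at the chromosome 3 locus. After TMM scaling the groups overlapped, with 12539, 15383 and 5353 CPM in the withaferin A libraries and 3019, 1518 and 5928 CPM in the untreated libraries. The authors' deposited table of normalized scores overlaps too, with 2792, 5832 and 4680 after withaferin A and 2405, 1225 and 4802 untreated. Withaferin A library 3, with a TMM factor of 3.32 against 0.767 and 1.21 in the other two, was above library 1 by share and the lowest of the group by scaled CPM. Without untreated library 3, the highest untreated one, miR-16-5p passed at a log2 fold change of 2.10 (edgeR adjusted p = 0.00109), where 21.5% of loci were called and 2.31% were called higher. With 1 locus per miRNA name it passed at 2.24 (edgeR adjusted p = 0.0183), where 14.1% were called, 2.22% higher and 11.9% lower. It passed at 1.87 in limma-voom too (adjusted p = 0.0087), a fit that called 77.2% of loci, with 59.4% higher and 17.8% lower. It did not pass under the other 11 of 14 alternatives, from 0.65 in DESeq2 (adjusted p = 0.264) to 2.65 in edgeR with library totals (adjusted p = 0.0825), and it was above 0 under all 14.

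miR-103a moved the other way. It had 0, 0 and 1 counts in the withaferin A libraries, against 21390, 23874 and 14774 in the untreated libraries. As shares these were 0%, 0% and 0.294% after withaferin A, and 0.832%, 0.913% and 0.796% untreated, so the groups did not overlap. The exact upper limits of the withaferin A libraries, 0.879%, 0.854% and 1.63%, all reached above the lowest untreated share. Its 1 count, where the untreated share predicts 10.1, made the share 10.1-fold lower, with wide exact 95% limits of 1.81 to 397. miR-103a fell by edgeR's test: its log2 fold change was −4.61 ± 0.70 (SE), the adjusted p was 0.00474, and 3 of 3 withaferin A libraries were lower. With library totals in place of TMM it was −3.32 and missed the threshold (edgeR adjusted p = 0.0551) in a setting that called 5.61% of loci, 1.98% higher and 3.63% lower. It passed under the other 13 of 14 alternatives, among them DESeq2 (−5.28, adjusted p = 5.57e-05), which called 25.4% of loci, 24.8% lower. Without withaferin A library 3 no count was left, so the fitted value of that setting is no measure of size.

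**Figure D2:**
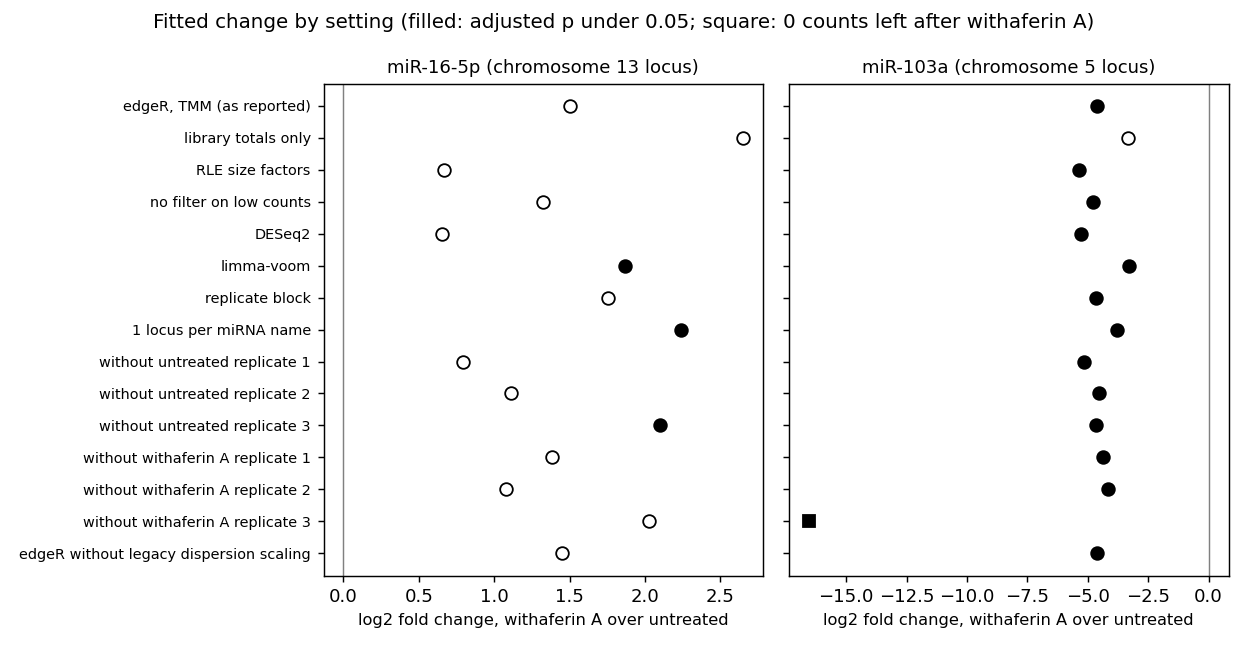
Fitted log2 fold change of withaferin A over untreated for miR-16-5p (left) and miR-103a (right), with each way of processing on a line of its own and filled symbols where the adjusted p was under 0.05. miR-16-5p lay above 0 throughout, from 0.65 to 2.65, and passed in 3 of 14 alternatives, while miR-103a lay below 0 and passed in 13 of 14.

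A fall was common among loci deep enough to show it. edgeR called 53 of the 303 loci (17.5%), and of these 2 were higher (0.66% of all tested) and 51 lower (16.8%). Among members 8 were tested and 2 called, both lower, and these are the 2 miR-103a loci with shared reads. Above the floor in untreated cells there were 52 loci, among members only those of miR-103a, and 42 of the 52 were called lower (80.8%). The call for miR-103a was the one that most loci at such levels received. On data simulated at these depths the same fit also called some unchanged loci and gave some changed loci the wrong sign. Its calls, that of miR-103a included, may thus be less certain than their adjusted p states. The simulation built both groups from the untreated profile with a fixed dispersion, so it gives no error rate for miR-103a itself. Shares that stood apart upward were fewer, but only a locus with a count in every withaferin A library could show this. There were 14 such loci among 947. Every withaferin A library was above every untreated one in CPM at 9 of these 14, which is 2.97% of the 303 tested. Among the 8 members these were the 2 miR-16-5p loci, which largely hold the same reads. Standing apart upward was thus common among the loci able to show it. Shares below every untreated library were found at 276 loci (91.1%), most of them at 0 counts, and also at the other 6 members tested.

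Detection in the shallow libraries needs no fold. Any count after withaferin A was found at 44 of 947 loci (4.65%) and at 4 of the 11 members. A count in every withaferin A library was found at 14 of 947 loci (1.48%), and at 2 of the 11 members, the miR-16-5p loci. At or under the floor in untreated cells were 895 loci, of which 16 had any count after withaferin A (1.79%) and 3 had one in every such library (0.335%). These were both miR-16-5p loci and an unnamed locus on chromosome 16, and the untreated mean of miR-16-5p, 2423 CPM, lay just under the floor of 2525 CPM.

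The ratio of miR-103a to miR-16-5p needs no library scaling. Of the counts of both together, miR-103a made up 0 of 4, 0 of 8 and 1 of 7 in the withaferin A libraries. It made up 80.0%, 90.0% and 65.6% in the untreated libraries. Summed, that was 1 of 19 counts after withaferin A (5.26%, exact 95% limits 0.133% to 26.0%) and 79.2% of 75778 untreated counts. The groups did not overlap, and the exact two-sided permutation p was 0.1, again the smallest possible. That separation and p were already fixed by the shares of miR-16-5p and miR-103a, which stood apart in opposite directions. The ratio is thus no separate support for either. The mean difference, withaferin A minus untreated, was −73.8 percentage points. With the chromosome 3 locus of miR-16-5p the difference was −73.1 percentage points. After withaferin A there were 18 counts of miR-16-5p to 1 of miR-103a, whereas in untreated cells miR-103a had 1.90 to 9.01 times the counts of miR-16-5p.

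The group as a whole did not separate the conditions. Summed over 9 loci with 1 copy each of miR-16-5p and miR-103a, members took 0.957%, 1.86% and 2.06% of counts after withaferin A and 1.16%, 1.12% and 1.31% untreated. These groups overlapped. The 7 of these loci with the AGCAGCA seed took 1.53% ± 0.496 after withaferin A and 0.281% ± 0.156 untreated (SD, n = 3 each). miR-103a and miR-107 together took 0.098% ± 0.17 after withaferin A and 0.915% ± 0.0559 untreated (SD, n = 3 each).

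The other 7 member loci had 0 counts in all 3 withaferin A libraries, and their untreated means were all below the floor, so no fold can be given and a fall was not detectable at this depth. miR-107 came closest, with an untreated share that predicts 0.81 counts in 1188. It had 800.1, 598.3 and 647.2 CPM in the untreated libraries, and edgeR did not call it (adjusted p = 0.201). miR-15b-5p predicts 0.323 counts and miR-15a-5p 0.0853 counts. Of the counts of miR-15a-5p and miR-16-5p together, miR-15a-5p made up 0 of 18 after withaferin A, with an exact upper limit of 18.5%. Untreated, it made up 2.46% to 3.67%. Beside the chromosome 3 locus of miR-16-5p, miR-15b-5p also made up 0 of 18. Its untreated values were 11.9%, 25.7% and 4.43%, of which that of library 2 lay above the limit of 18.5%. Reads of miR-16-5p cannot be given to either gene copy, so these absences cannot be read as a split of the clusters. Neither miR-15b-5p (edgeR adjusted p = 0.559), miR-15a-5p (adjusted p = 0.792) nor miR-424-5p (adjusted p = 0.792) was called.

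The untreated libraries are deep enough to order the members. miR-103a led with 8469 ± 597 CPM (SD, n = 3), at rank 23 of 947 loci, and miR-16-5p followed with 2423 ± 1613 CPM at rank 55. miR-107 had 682 ± 105 CPM, miR-15b-5p 272 ± 77.2 CPM and miR-15a-5p 71.8 ± 33.5 CPM. Each of these 5 lay above the next in all 3 libraries with no overlap, although every miRNA is captured with an efficiency that was not measured here. By counts miR-15b-5p was thus 1.82 to 8.97 times as abundant as miR-15a-5p, and miR-103a 10.4 to 15.3 times as abundant as miR-107. In the 3p arm miR-103a differs from miR-107 only at base 22 of 23, so a read that ends before it fits both. How such reads were counted is not given in the sources used here, so the ratio of these members may be off.

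The lowest members came from clusters of their own. miR-424-5p, which in mice takes part in the regression of the mammary gland after lactation, had 16.7, 28.7 and 13.5 CPM in the untreated libraries. Its hairpin is at chrX:134546614-134546711 (minus strand), in an exon of MIR503HG. miR-195-5p, from chr17:7017615-7017701 (minus strand) in an exon of MIR497HG, had 15.2, 9.56 and 17.2 CPM. These 2 overlapped and cannot be ordered. miR-497-5p, 209 bases from miR-195, was listed at 2 loci of chromosome 17 with 17, 16 and 5 counts and 12, 14 and 4 counts, which overlapped. RefSeq places 1 MIR497 hairpin, at chr17:7017911-7018022, and which locus matches it is not given in the sources used here. The X chromosome neighbours of miR-424 had 0 counts after withaferin A. Untreated, miR-542-5p had 56, 35 and 44 counts and miR-450a-5p had 72, 72 and 52, against 43, 75 and 25 for miR-424-5p. Of these neighbours 2 of 3 names had a locus, and edgeR and DESeq2 called 0 of the 2, with 0 in edgeR below an unadjusted p of 0.05, while limma-voom, which called 59.4% of all loci higher, called both higher.

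**Figure D3:**
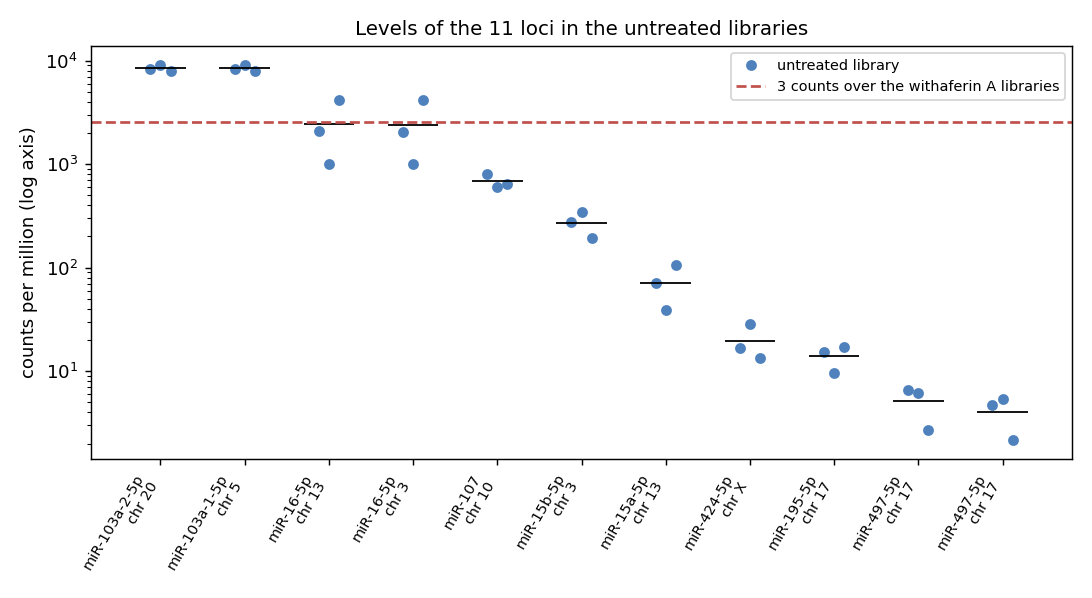
CPM of the 11 member loci in the 3 untreated libraries on a log axis, with means as lines and the floor of 3 counts over the withaferin A libraries dashed. The miR-103a loci lie above the floor at 8469 CPM, the miR-16-5p loci have means of 2423 and 2402 CPM, just under it, with library 3 above it, and the other 7 lie below it.

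Members also differed in how much they varied among the untreated libraries, where treatment played no part. miR-16-5p had 2073, 1013 and 4181 CPM, a 4.13-fold range, and its coefficient of variation (CV, SD over mean) was 66.6%. Of 169 loci with 1 locus per name and at least 50 CPM, 1 had a larger CV, miR-193b-5p at 73.5%, which was named after its value was seen. The median of those loci was 19.7%. Counting error is small here, since the exact 95% limits of untreated library 2 were 0.0975% to 0.105% and those of library 3 were 0.409% to 0.428%. miR-15a-5p, its chromosome 13 neighbour, followed the same order with 71.2, 38.6 and 105.6 CPM (CV 46.7%, 12 loci larger).

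The chromosome 3 neighbour went the other way. miR-15b-5p had 278.1, 346.4 and 192.4 CPM (CV 28.3%), lowest in the library where miR-16-5p was highest. miR-15a-5p made up 20.4%, 10.03% and 35.4% of the counts of miR-15a-5p and miR-15b-5p in libraries 1, 2 and 3. miR-103a varied little, with 8320, 9127 and 7961 CPM (CV 7.05%, 141 loci larger), and miR-107 had a CV of 15.4%. The order of miR-16-5p and miR-15a-5p over the 3 libraries, highest in library 3 and lowest in library 2, was shared by 71 of the 169 loci (42.0%), and that of miR-15b-5p and miR-103a by 45 (26.6%). No correlation is given over 3 libraries.

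**Figure D4:**
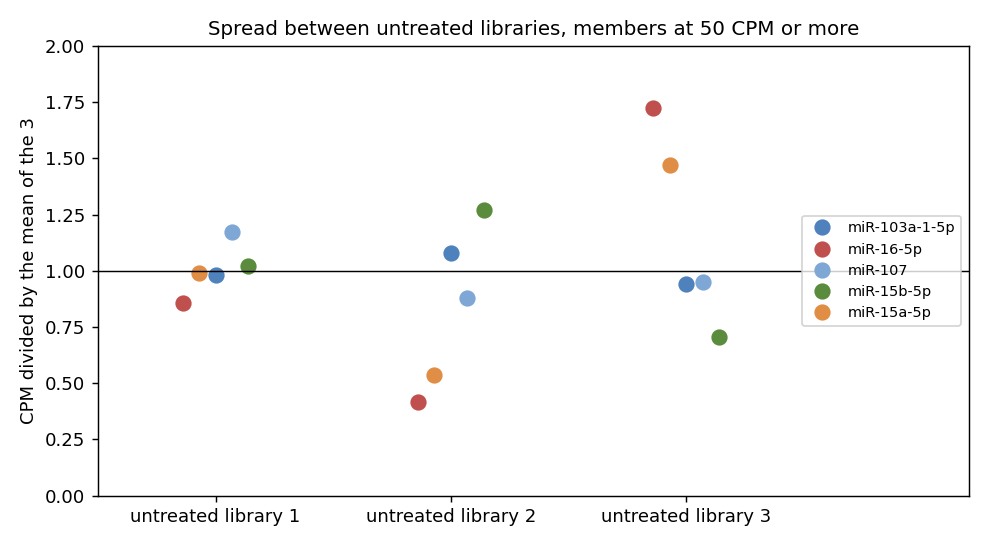
CPM in each untreated library divided by the mean of the 3, for the 5 members at 50 CPM or more. miR-16-5p runs from 0.418 to 1.73 times its mean and miR-15a-5p from 0.538 to 1.47, whereas miR-103a stays between 0.94 and 1.08.

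The loci nearest to miR-16-5p in pattern were sought among 11 named loci with a count in every withaferin A library, by Euclidean distance of log2(CPM + 1) centred over the 6 libraries. miR-205-5p was nearest (distance 1.65), followed by let-7e-5p (2.00) and let-7a-5p at its chromosome 22 locus (2.20). Having been chosen for this likeness, they had to be higher by mean CPM after withaferin A (4.83, 5.04 and 5.60 times untreated), and edgeR called none of the 3 (adjusted p = 0.161, 0.207 and 0.108). Other candidates went the other way, such as let-7f-5p at 0.537 times and miR-21-5p at 0.0848 times its untreated CPM, both named after their values were seen.

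Marker lists were read beside these values. All 7 epithelial names had a locus and together took 28.8% to 37.2% of counts after withaferin A and 6.93% to 7.80% untreated. After withaferin A all 395 of these counts were miR-205-5p, a miRNA of basal epithelium, and the other 6 names, miR-200a, miR-200b, miR-200c, miR-141, miR-429 and miR-203a, were at 0. Of 5 epithelial loci tested in edgeR 1 was called lower, miR-200c-5p, and 0 higher, and 2 had an unadjusted p under 0.05. Over all loci edgeR called 16.8% lower and 0.66% higher. DESeq2 called 1 of the 5, beside 25.4% of all loci. By limma-voom 2 were called higher and 1 lower, beside 59.4% and 17.8% of all loci.

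Blood cell miRNAs bear on miR-16-5p because red cells are rich in it. Of 6 blood names 5 had a locus, all but miR-451a. These 5 had 0 counts after withaferin A and 0.00596% to 0.0111% untreated. That untreated share predicts 0.107 counts in 1188, far under the floor, so the 0 says nothing about these miRNAs after withaferin A. Most of this was miR-486-5p, a red cell miRNA, with 261, 138 and 162 untreated counts, while miR-144-5p had 1, 1 and 0. Mesenchymal names (3 of 4 with a locus) had 0 counts after withaferin A and 0.00279% to 0.00393% untreated, and liver and muscle names (2 of 4) had 0 counts after withaferin A and 0.00431% to 0.00793% untreated. These 2 lists predict 0.0388 and 0.0668 counts and were under the floor as well. In these 3 lists 4 loci were tested, and edgeR (0 at an unadjusted p under 0.05) and DESeq2 called 0. limma-voom called all 4 higher at 0 counts, as it did 59.4% of all loci.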

How the data were processed

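Small RNA was sequenced from MCF10A cells, 3 libraries per group. The deposited table gives raw counts per locus. Build GRCh38.p7 and the tools cutadapt, Trim Galore and edgeR, without versions, are named in the submitters' processing notes. The aligner and counting rule are not given in the sources used here. The second deposited table holds the authors' normalized score, a count times a library factor, rounded; it was used only to show values. Columns were tied to groups only through the sample names in each record's description, AB for untreated and MCF-10A for withaferin A. These names do not state a treatment themselves, so the comparison and its direction rest on this tie.

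The members and lists were chosen with earlier results of these data known. All members were accounted for, those with a count after withaferin A in most detail. Tests on the counts used R 4.3.3 and edgeR 4.0.16 (quasi-likelihood F test, legacy dispersion scaling, TMM, filterByExpr minimum count 10, adjusted p under 0.05); SE is the log2 fold change over the square root of F. Alternatives were other scalings and filters, DESeq2 1.42.0, limma-voom 3.58.1, a replicate block, 1 locus per name and leaving out each library. Exact permutation tests and Clopper-Pearson intervals used scipy 1.17.1. The fit was tested on simulated data: it recovered the changes when every library had an untreated depth, but at the real depths it missed most changed loci, called some unchanged ones and gave some the wrong sign. Withaferin A columns differed in pairs (chi-square per degree of freedom 1.32 to 1.70) and were kept as 3. Sequences and coordinates are from RefSeq GRCh38.p14, with 10 of 10 hairpins matched, and host genes from GENCODE v29.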

Additional observations from a re-analysis of the deposited data

How the results depend on the processing

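edgeR called 53 loci (2 higher, 51 lower). The count was 17 with library totals, 25 with a replicate block, 234 in limma-voom (180 higher) and 21 in edgeR without legacy dispersion scaling, which was added after seeing the data. Leaving out 1 library gave 24 (without withaferin A replicate 3) to 68. Of the 8 members tested, 2 were called, beside 17.5% of all loci. With library totals edgeR called 0 of them, beside 5.61% of all loci. In that setting 4 members had an unadjusted p under 0.05, beside 53 of the 303 loci. These 4 were the miR-103a and miR-16-5p loci, whose copies share reads. DESeq2 called 2 members, beside 25.4% of all loci. By limma-voom 6 were called (4 higher), beside 77.2% of all loci (59.4% higher). In edgeR leaving out 1 library gave 2 to 4 members, with 4 without untreated replicate 3, where 21.5% of all loci were called. Members at 0 counts turned above 0 in limma-voom (miR-15a-5p 3.17, miR-15b-5p 1.19, miR-424-5p 4.99) and in DESeq2 (miR-15a-5p 0.68, miR-424-5p 2.50), so those fitted values carry no direction. The share difference of miR-16-5p stayed above 0 (1.12 to 1.57 percentage points without 1 library, 1.69 with 1 locus per name in the denominator and 1.99 without the most abundant name of each group). Between libraries of the same replicate number the correlations of deviations were −0.0931, −0.224 and 0.0315 over 14 loci. Between different numbers they ran from −0.414 to 0.643. With so few counts after withaferin A, and some loci sharing reads, this check cannot show whether the libraries were paired. With a replicate block edgeR called 2 members, the miR-103a loci with shared reads, beside 25 of the 303 loci (1 higher, 24 lower). The sign flip p for miR-16-5p was 0.25, the smallest that 3 pairs allow in an exact test.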
